A study of Mus musculus with 6 samples.

Results

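The genes described here encode the proteins that carry glucose into the cell, break it down to pyruvate, turn pyruvate into lactate or admit it to the mitochondrion, and divert sugar phosphates into the pentose phosphate pathway or into glycogen. They were taken from a list of 51 gene symbols, each read from its brightest probe set by mean over all arrays among the probe sets that name 1 gene. By that rule 45 of the 51 were measured, out of 19938 named genes. Gapdh had 25 probe sets, each naming 4 to 8 genes, and no level was taken from them. The other 5 without a probe set of their own, Gpi1, Pfkfb1, Eno1, Mpc2 and G6pdx, were not analysed here.

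Glycolysis converts glucose to pyruvate in the cytosol, with commitment at hexokinase and phosphofructokinase and a small yield of ATP. Pyruvate is then either reduced to lactate by lactate dehydrogenase and exported by monocarboxylate transporters, or oxidised by the mitochondrial pyruvate dehydrogenase complex, which pyruvate dehydrogenase kinases switch off by phosphorylation and phosphatases switch back on. The pentose phosphate pathway draws on glucose 6-phosphate to make NADPH and ribose 5-phosphate. Growth factor signals through PI3K-AKT and the transcription factors HIF-1 and MYC are known to raise many of these transcripts, and pigment cells use the same enzymes as other dividing cells.

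All samples were Melan-Ink4a cells, an immortal melanocyte line from C57BL/6J skin with the genotype Ink4a-ARF1 null. In 3 samples the cells had received 10 nM NRG1-b1, the EGF-like form of the growth factor neuregulin 1, for 21 days, and the other 3 were untreated, with no matching time in the labels. Medium with 10% FBS, 200 nM of the phorbol ester TPA, which acts on protein kinase C, and 200 pM cholera toxin, which raises cyclic AMP, was common to both groups, and RNA was taken at 90% confluence. The comparison addressed what prolonged signalling of NRG1 through its receptor ERBB3 does to transcript levels in melanocytes. Everything comes from 1 line that lacks a tumour suppressor locus, and the labels do not say whether the 3 samples of a group were separate cultures. The p-values therefore reflect the scatter among these arrays alone, part or all of which may be technical.

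Transcripts were measured on 1 Affymetrix Mouse Gene 1.0 ST array per sample, and levels are log2 values, so that a difference of 1 is a doubling. The array medians lay between 6.99 and 7.07, and within a group any 2 arrays had a correlation of 0.996 to 0.997 over all genes. The melanocyte markers were present, with means over 10 genes of 11.53 to 11.59 on the NRG1 arrays and 12.25 to 12.28 on the untreated arrays. Of the 10, 9 fell, against 8.56% of all genes. Markers of other skin and nerve cell types had means near or below the level of the median gene, 7.17, on all arrays. These were 6.39 to 6.60 for 10 fibroblast genes, of which only Col1a1 rose, 6.33 to 6.47 for 10 keratinocyte genes, none of them called, and 7.38 to 7.45 for 7 measured genes of Schwann cells and glia, of which Gfap and Fabp7 rose. None of these markers was at 0, and the lowest single values were 4.20, 4.98 and 5.69 in those 3 lists. The highest single values there were 9.08 (Col1a1), 7.87 (Sfn) and 11.22 (Pmp22), so that single members lay above the median gene. The means of 9 proliferation genes lay between 9.11 and 9.44 with NRG1 and between 7.82 and 8.08 without. All 9 rose, against 12.3% of all genes, a share that also applies to the rises in the lists above. The part of these shifts in the values that follow was not tested, and fewer cells of a type and less RNA per cell cannot be told apart in bulk RNA.

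Among the called genes, Pfkl, Pfkp, Tpi1, Pgk1, Pgam1, Eno3, Ldha and Slc16a1, which act between phosphofructokinase and lactate export, were higher with NRG1. They were called in every setting in which they were tested, 17 for each except Eno3, which was tested in 16. The called falls were those of Pfkfb2, Aldoc, Eno2, Pdha1, Pdk2, Pdk4 and Pygl. Of the 45 genes, 19 rose, 7 fell and 19 were not called by limma at an adjusted p under 0.05 over all genes. Over all genes tested, 12.3% rose and 8.56% fell. The 45 had a median level of 8.75, against 7.17 over all genes. When the 9969 genes at or above the median level were tested alone, 2596 rose and 1776 fell, larger shares than over all genes. The shares of all genes given here and below are not matched for level. The median change of the 45 was 0.17 on the log2 scale, NRG1 minus untreated, against -0.029 over all 19938 genes. Quantile normalization changed the share of rises among all called genes from 59% to 48.5%, and it gave 18 rises and 8 falls among the 45. The 3 NRG1 values lay wholly above or wholly below the 3 untreated values for 34 of the 45 genes, against 36.7% of all genes. Called rises of at least 2-fold were those of Pdk1 and Pfkl, and the called fall of at least 2-fold was that of Pdk4, against 1.51% and 0.416% of all genes. Changes were mostly modest, with the middle part of the list, from the first to the third quartile, between -0.077 and 0.44.

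**Figure D1:**
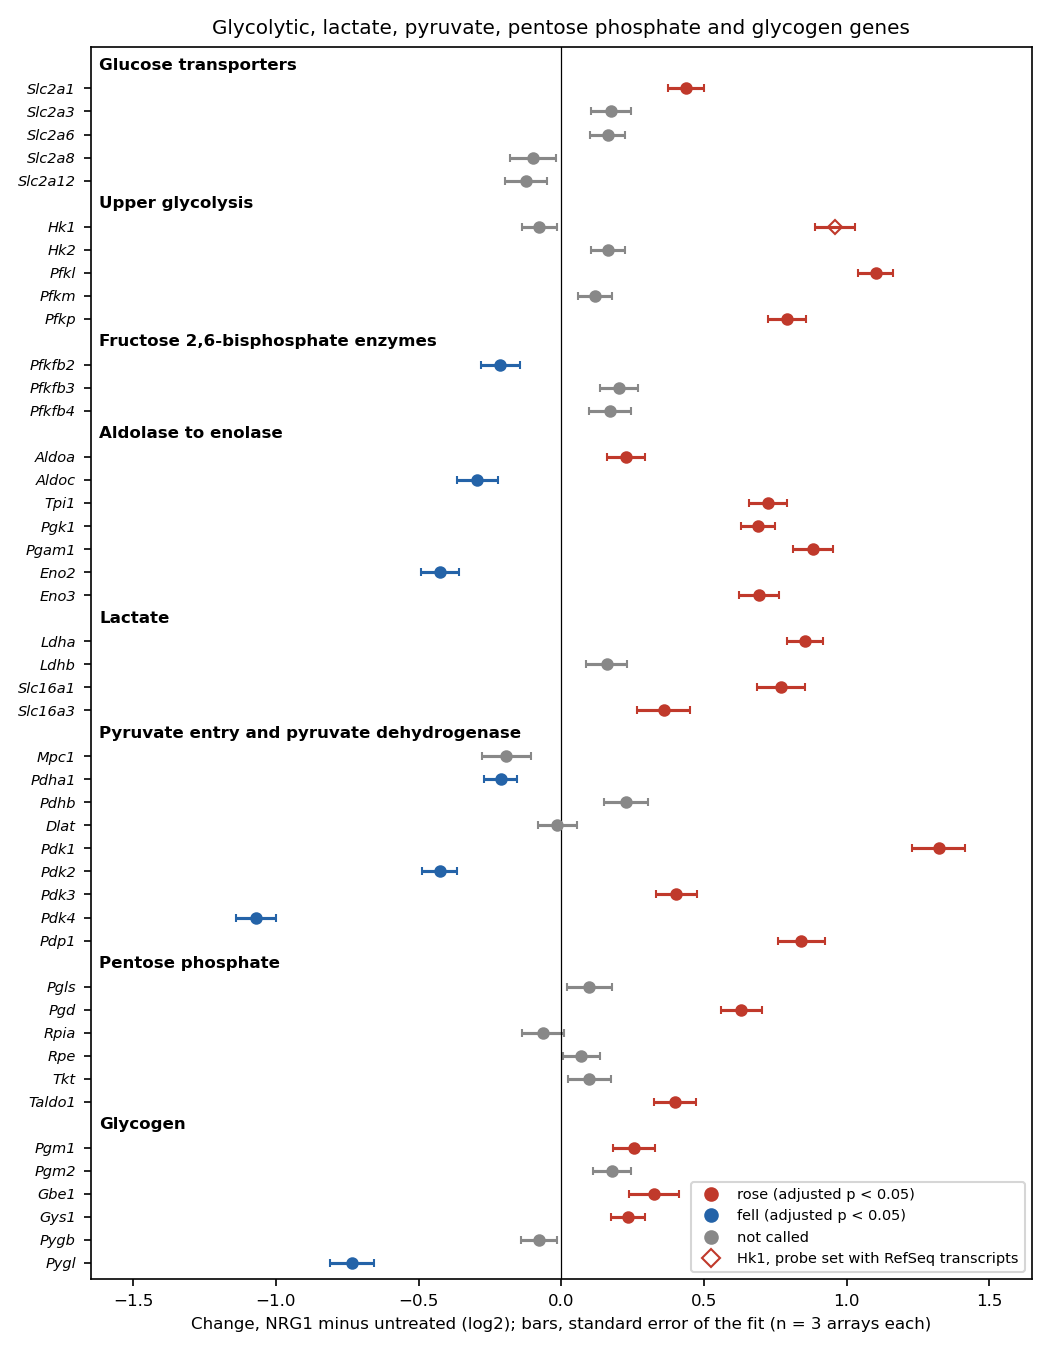
Change of each of the 45 measured genes, NRG1 minus untreated on the log2 scale (horizontal axis), grouped by role, with the standard error of the limma fit as bars and 3 arrays in each group. Red points rose, blue points fell and grey points were not called, and the open diamond is the second probe set of Hk1. Pdk1 (1.32) lies farthest to the right and Pdk4 (-1.07) farthest to the left.

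The upstream sequences of the largest movers are printed here because hypoxia-inducible factors and E-box factors are known to act on this pathway through short motifs near the start of its genes. Each line is the 250 bases before the start of the gene, 5′ to 3′ on the strand of the gene, from RefSeq on GRCm38.p6, using the first start listed, and capitals mark ACGTG or GCGTG, the core of the hypoxia response element, on either strand (read in reverse as CACGT or CACGC). The first 3 belong to the 3 largest rises, the next to the largest fall. Pfkm is shown as the partner of Pfkl, and Ldha, chosen after its values were seen, for the lactate step.
Pdk1, chr2:71872974-71873223, plus strand: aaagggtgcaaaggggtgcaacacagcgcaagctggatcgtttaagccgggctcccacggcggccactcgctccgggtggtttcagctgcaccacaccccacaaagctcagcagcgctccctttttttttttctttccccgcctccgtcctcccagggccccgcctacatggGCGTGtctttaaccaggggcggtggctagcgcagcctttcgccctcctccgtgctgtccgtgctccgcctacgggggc
Pfkl, chr10:78009808-78010057, minus strand: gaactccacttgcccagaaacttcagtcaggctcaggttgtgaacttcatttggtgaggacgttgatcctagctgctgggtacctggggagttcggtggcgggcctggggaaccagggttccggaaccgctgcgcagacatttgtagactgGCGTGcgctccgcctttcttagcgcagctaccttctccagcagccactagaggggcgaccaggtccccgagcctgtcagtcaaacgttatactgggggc
Pgam1, chr19:41911621-41911870, plus strand: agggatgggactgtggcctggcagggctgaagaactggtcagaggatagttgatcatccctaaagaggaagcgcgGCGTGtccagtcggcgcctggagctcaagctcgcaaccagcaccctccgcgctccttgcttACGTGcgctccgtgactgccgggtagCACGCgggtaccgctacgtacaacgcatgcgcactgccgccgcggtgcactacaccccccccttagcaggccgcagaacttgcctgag
Pdk4, chr6:5496279-5496528, minus strand: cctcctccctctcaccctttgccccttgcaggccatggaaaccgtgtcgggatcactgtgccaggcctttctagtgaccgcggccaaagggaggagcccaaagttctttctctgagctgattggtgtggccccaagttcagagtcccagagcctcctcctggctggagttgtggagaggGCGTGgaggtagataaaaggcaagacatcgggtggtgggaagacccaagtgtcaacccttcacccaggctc
Pfkm, chr15:98092339-98092588, plus strand: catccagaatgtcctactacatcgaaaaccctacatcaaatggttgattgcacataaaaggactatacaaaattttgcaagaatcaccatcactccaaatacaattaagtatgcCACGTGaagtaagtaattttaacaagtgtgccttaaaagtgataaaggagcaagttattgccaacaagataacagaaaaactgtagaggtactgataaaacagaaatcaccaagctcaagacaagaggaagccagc
Ldha, chr7:46845554-46845803, plus strand: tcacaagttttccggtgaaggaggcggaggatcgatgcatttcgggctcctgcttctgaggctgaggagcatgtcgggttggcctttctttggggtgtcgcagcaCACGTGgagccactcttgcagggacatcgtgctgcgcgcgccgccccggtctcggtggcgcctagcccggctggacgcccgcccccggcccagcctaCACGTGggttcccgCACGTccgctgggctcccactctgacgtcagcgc

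The Ldha window held 5 matches to ACGTG, 4 of them the 2 strands of 2 copies of CACGTG, an E-box that reads the same on both strands. Pgam1 had 1 match to ACGTG and 2 to GCGTG, and Pdk1, Pfkl and Pdk4 had 1 match to GCGTG each. Of the 58 windows listed for 43 of the measured genes, 44 held ACGTG or GCGTG, or 75.9%, against 38.6% of all 32851 windows and 46.2% of the 19177 windows of tested genes. The share did not follow the direction of change. It was 73.9% of 23 windows of genes that rose, 81.8% of 11 windows of genes that fell and 75% of 24 windows of genes not called. Counted by gene with any window, it was 83.3%, 85.7% and 83.3%. The E-box CACGTG, whose matches are all counted under ACGTG as well, stood in 6 of the 58 windows, or 10.3%, against 6.99% of the windows of tested genes and 6.02% of all windows. A GGGCGG box, the site of SP1, was found in 55.2% of the 58, in 45.5% of the windows of tested genes and in 32.7% of all windows. It stood in 15 of 23 windows of genes that rose (65.2%), 3 of 11 of genes that fell (27.3%) and 14 of 24 of genes not called (58.3%). Some genes have several windows, which are not independent. Counted by gene with any window, the box stood in 14 of 18 (77.8%), 3 of 7 (42.9%) and 12 of 18 (66.7%), a difference that was not tested. These are matches of letters in a fixed window, and no binding was measured.

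Glucose enters through the transporters of the Slc2a family, and 1 of the 5 measured rose, or 20% against 12.3% of all genes. None fell. Slc2a1, which encodes GLUT1, the common transporter of dividing cells, was at 9.50, 9.39 and 9.42 with NRG1 and at 8.99, 9.07 and 8.93 without. All 3 NRG1 arrays lay above all 3 untreated arrays, and the rise was 0.44 ± 0.064 (SE), or 1.35-fold (limma, adjusted p = 0.00067). Slc2a3, the gene of the high-affinity GLUT3, differed by 0.17 (6.42 ± 0.107 against 6.25 ± 0.054, SD, n = 3 each; limma, adjusted p = 0.117). Slc2a6 and Slc2a8, both known for transporters held on inner membranes, and Slc2a12 differed by 0.16, -0.10 and -0.12, none of them called. The groups overlapped for Slc2a8 and Slc2a12 and not for the other 3.

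Hexokinase traps glucose as glucose 6-phosphate, and for Hk1, the form of most tissues, the 2 probe sets of the gene gave different results. The brightest Hk1 probe set was at 11.92, 11.81 and 11.83 with NRG1 and at 11.89, 11.98 and 11.92 without, groups that overlap, with a difference of -0.077 ± 0.061 (limma, adjusted p = 0.447). The other Hk1 probe set was at 10.49, 10.39 and 10.34 with NRG1 and at 9.45, 9.54 and 9.36 without. Its NRG1 arrays all lay above the untreated arrays, by 0.96 ± 0.070, or 1.94-fold (limma, adjusted p = 5.26e-06). The annotation pairs the second probe set with RefSeq transcripts of Hk1. It pairs the brightest one with a single GenBank record, which is also listed for all 16 probe sets that name Hk1 together with other genes, and all 16 of those also name Rpl17, a ribosomal protein gene. These 16 shared probe sets differed by -0.105 to -0.012 between the groups. With Hk1 read from the probe set that has RefSeq transcripts, 20 of the 45 genes rose, an alternative chosen after both values were seen. Hk2, the inducible muscle and tumour hexokinase, was at 8.68, 8.68 and 8.78 with NRG1 and 8.57, 8.56 and 8.52 without. These groups did not overlap, but the difference of 0.16 ± 0.060 was not called (limma, adjusted p = 0.0872).

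Phosphofructokinase commits sugar to glycolysis, and 2 of its 3 subunit genes rose, where 12.3% of all genes did. Pfkl, the liver-type subunit, was at 10.72, 10.65 and 10.78 with NRG1 and at 9.60, 9.66 and 9.59 without, a rise of 1.10 ± 0.061 or 2.15-fold (limma, adjusted p = 7.87e-07). Pfkp, the platelet-type subunit, was at 10.14, 10.00 and 10.12 against 9.34, 9.34 and 9.21, a rise of 0.79 ± 0.067 (limma, adjusted p = 1.59e-05). Both genes were separated between the groups by far more than the spread within a group. Pfkm, the muscle-type subunit, was at 9.13, 9.20 and 9.23 with NRG1 and 9.03, 9.13 and 9.06 without (0.12; limma, adjusted p = 0.219). The highest untreated value of Pfkm was equal at 2 decimals to its lowest NRG1 value.

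The PFKFB enzymes make and destroy fructose 2,6-bisphosphate, the strongest activator of phosphofructokinase, and differed little. Pfkfb2, the form known from heart, fell by 0.21 ± 0.068, from 8.70, 8.79 and 8.60 to 8.51, 8.42 and 8.51 (limma, adjusted p = 0.0493). That call ended under 8 of 17 alternatives, among them the fits without NRG1 replicate 1 (adjusted p = 0.0915), 2 (0.155) or 3 (0.0907) and without untreated replicate 1 (0.129) or 2 (0.107). Pfkfb3, the inducible form with strong kinase activity, was at 7.21, 7.12 and 7.04 against 6.96, 6.88 and 6.91 (0.20; limma, adjusted p = 0.0532), and it was called without NRG1 replicate 3 (0.25, adjusted p = 0.0484). Pfkfb4 differed by 0.17 with overlapping groups (limma, adjusted p = 0.141).

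From aldolase to enolase all 7 measured genes were called, 5 up and 2 down. The shares were 71.4% and 28.6%, against 12.3% and 8.56% of all genes. Tpi1, which interconverts the triose phosphates, was at 11.63, 11.52 and 11.63 with NRG1 and 10.84, 10.96 and 10.80 without, a rise of 0.73 ± 0.067 (limma, adjusted p = 2.77e-05). Pgk1, whose enzyme makes the first ATP of the pathway, was at 11.93, 11.82 and 11.89 against 11.16, 11.24 and 11.17, a rise of 0.69 ± 0.060 (limma, adjusted p = 1.98e-05). Pgam1, which moves the phosphate of phosphoglycerate, was at 10.51, 10.37 and 10.43 against 9.55, 9.65 and 9.47, a rise of 0.88 ± 0.069 or 1.84-fold (limma, adjusted p = 9.2e-06). In these 3 genes the gap between the groups was several times the range within a group, and their further probe sets gave 0.68 and 0.69 for Pgk1 and 0.88 and 0.89 for Pgam1. Both genes have 2 probe sets with equal values on every array at 2 decimals, so these are not independent readings.

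The aldolase and enolase genes were called in both directions. Aldoa, the aldolase of most cells, was at 12.32, 12.25 and 12.25 with NRG1 and 11.94, 12.13 and 12.06 without, a rise of 0.23 ± 0.068 (limma, adjusted p = 0.0374). The call ended under 8 of 17 alternatives, among them the fits without NRG1 replicate 1 (adjusted p = 0.125), 2 (0.0756) or 3 (0.0809) and without untreated replicate 1 (0.159) or 3 (0.0709). Aldoc, the brain aldolase, was at 9.59, 9.56 and 9.61 with NRG1 and 9.75, 10.00 and 9.90 without. It fell by 0.29 ± 0.073 (limma, adjusted p = 0.0159). Leaving out NRG1 replicate 2 took it past the threshold (adjusted p = 0.053). Eno2, the neuronal enolase, fell by 0.42 ± 0.067, from 8.49, 8.60 and 8.46 to 8.18, 8.02 and 8.08 (limma, adjusted p = 0.00116). Eno3, the muscle enolase, rose by 0.69 ± 0.070, from 6.77, 6.65 and 6.71 to 7.29, 7.44 and 7.48 (limma, adjusted p = 5.3e-05). Neither enolase showed any overlap between the groups.

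Pkm, the gene of the pyruvate kinase that ends the pathway, was not on the list but rose as well, from 10.81, 10.92 and 10.87 to 11.46, 11.46 and 11.53, by 0.62 (limma, adjusted p = 4.22e-05). Among 18 measured genes of sugar transport and glycolysis outside the 45, Pkm, Bpgm (0.73), Slc2a10 (0.43) and Adpgk (0.30) rose. Khk, the fructose kinase gene, fell by 0.26, so that 22.2% rose and 5.56% fell, against 12.3% and 8.56% of all genes. Slc2a10 was dim, with a mean of 5.93 over all arrays, below the median gene at 7.17. The other 13 were not called, and neither was any of the 7 measured genes of gluconeogenesis, which runs the pathway backwards, by limma at an adjusted p under 0.05, with 0 of the 7 at an unadjusted p under 0.05.

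**Figure D2:**
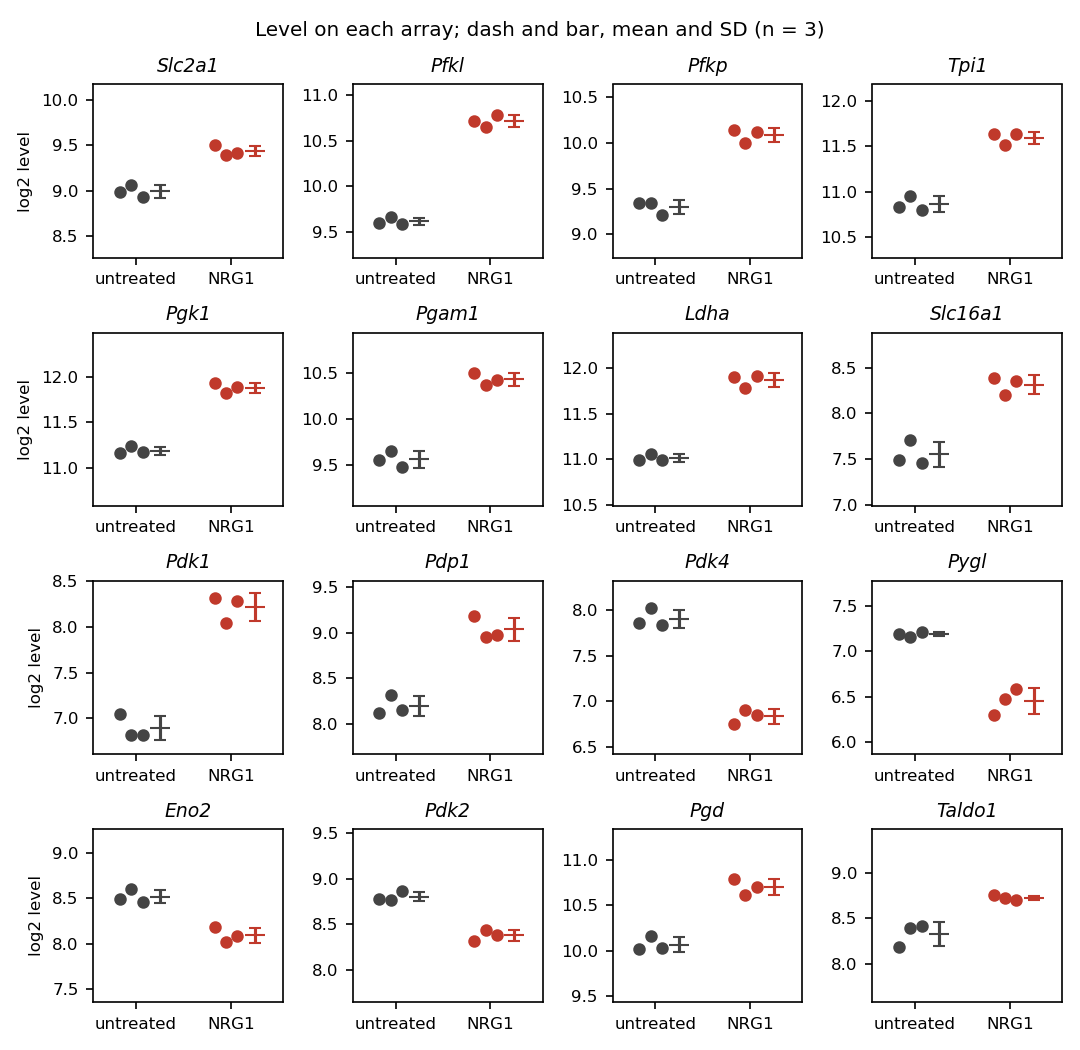
Log2 level of 16 called genes on each of the 3 untreated arrays (grey) and the 3 NRG1 arrays (red), with the mean and SD as a dash and bar; every panel spans the same height on the log2 scale but starts at its own level. The groups do not overlap in any panel, with Pdk4, Pygl, Eno2 and Pdk2 lower and the other 12 higher with NRG1.

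In the lactate branch 3 of the 4 genes rose, or 75% against 12.3% of all genes. These were Ldha, Slc16a1 and Slc16a3, and Ldhb was not called. Ldha, the lactate dehydrogenase subunit that favours lactate formation, was at 11.90, 11.78 and 11.92 with NRG1 and 10.99, 11.06 and 10.99 without. This was a rise of 0.85 ± 0.063 or 1.81-fold, with no overlap (limma, adjusted p = 6.09e-06). Ldhb, the subunit known from heart, was at 9.68, 9.67 and 9.59 against 9.37, 9.57 and 9.54 (0.16; limma, adjusted p = 0.153), and its other probe set gave 0.011. Slc16a1, the gene of the lactate and pyruvate carrier MCT1, rose by 0.77 ± 0.084, from 7.49, 7.71 and 7.45 to 8.39, 8.20 and 8.36 (limma, adjusted p = 9.2e-05). Slc16a3, the gene of the export carrier MCT4, was at 7.95, 8.06 and 8.09 with NRG1 and at 7.81, 7.46 and 7.76 without, with untreated replicate 2 lowest. It rose by 0.36 ± 0.094 (limma, adjusted p = 0.0207). Leaving out NRG1 replicate 2 (adjusted p = 0.0612) or 3 (0.0728) took Slc16a3 past the threshold. Bsg, the gene of the chaperone of both carriers, was not called (0.042; limma, adjusted p = 0.714), and neither was Slc16a7, the gene of the carrier MCT2 (-0.039; adjusted p = 0.802).

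The pyruvate dehydrogenase step held both the largest rise and the largest fall, in kinases that act on the same enzyme. Pdk1, known as a HIF-1 target, was at 8.32, 8.04 and 8.29 with NRG1 and 7.05, 6.81 and 6.82 without, a rise of 1.32 ± 0.092 or 2.50-fold (limma, adjusted p = 4.01e-06). Pdk4, the kinase of fasting that FOXO factors are known to induce, was at 6.75, 6.91 and 6.85 with NRG1 and 7.86, 8.02 and 7.84 without. It fell by 1.07 ± 0.071 on the log2 scale, a 2.10-fold difference (limma, adjusted p = 2.75e-06). For both genes the lowest array of the higher group was about 1 log2 unit above the highest array of the lower group.

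The other kinases split in the same way. Pdk3 rose by 0.40 ± 0.071, from 9.54, 9.59 and 9.41 to 10.00, 9.84 and 9.92 (limma, adjusted p = 0.00228). Pdk2, the most widely expressed form, fell by 0.43 ± 0.062, from 8.78, 8.77 and 8.86 to 8.32, 8.44 and 8.38 (limma, adjusted p = 0.000688). Pdk1 and Pdk3 thus rose while Pdk2 and Pdk4 fell, with no overlap between the groups in any of the 4. On the side of the phosphatases, which reactivate the enzyme, Pdp1 rose by 0.84 ± 0.083, from 8.12, 8.32 and 8.15 to 9.18, 8.95 and 8.98 (limma, adjusted p = 4.39e-05), and Pdp2, outside the list, fell by 0.24 (adjusted p = 0.0223).

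The subunits of the complex itself changed little. Pdha1, the catalytic subunit that the kinases phosphorylate, fell by 0.21 ± 0.057, from 11.08, 11.09 and 11.04 to 10.87, 10.83 and 10.87 (limma, adjusted p = 0.0237). The groups did not overlap, but the call ended without NRG1 replicate 1 (adjusted p = 0.0643), 2 (0.0847) or 3 (0.0613) and without untreated replicate 1 (0.0884). The Pdha1 call also ended with the replicate number as a block (0.0622) and against a minimum change of 1.2-fold. Pdhb, its partner subunit, differed by 0.23 (limma, adjusted p = 0.0636) and was called without untreated replicate 2 (0.30, adjusted p = 0.0106). Dlat, the transacetylase, differed by -0.013 and Mpc1, a subunit of the mitochondrial pyruvate carrier, by -0.19, neither of them called. Pdhx, the subunit that binds the last enzyme of the complex and was not on the list, rose by 0.32 (limma, adjusted p = 0.00905).

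In the pentose phosphate pathway 2 of 6 measured genes rose, or 33.3% against 12.3% of all genes, and 4 were not called. Pgd, which makes NADPH in the oxidative branch, was at 10.79, 10.61 and 10.70 with NRG1 and 10.02, 10.16 and 10.03 without, a rise of 0.63 ± 0.071 or 1.55-fold (limma, adjusted p = 0.000107). Taldo1, the transaldolase of the non-oxidative branch, was at 8.75, 8.72 and 8.70 against 8.18, 8.39 and 8.41, a rise of 0.40 ± 0.073 (limma, adjusted p = 0.00296). In both genes every NRG1 array exceeded every untreated array. The lactonase gene Pgls (0.099), the isomerase gene Rpia (-0.064), the epimerase gene Rpe (0.070) and the transketolase gene Tkt (0.099) all had overlapping groups and adjusted p from 0.419 to 0.616 by limma. Of 9 further genes of this pathway and of ribose use 2 rose, or 22.2% against 12.3% of all genes, and none fell. H6pd, the NADPH-making counterpart in the endoplasmic reticulum, rose by 0.56 and Dera, a deoxyribose phosphate aldolase gene, by 0.27.

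Of the 6 glycogen genes 3 rose, 1 fell and 2 were not called, with the widest difference in the liver phosphorylase. The shares were 50% and 16.7%, against 12.3% and 8.56% of all genes. Pygl, which releases glucose units from glycogen, fell by 0.73 ± 0.077, from 7.19, 7.16 and 7.21 to 6.30, 6.47 and 6.58, a 1.66-fold difference (limma, adjusted p = 6.79e-05). Pygb, the brain form, was at 10.27, 10.33 and 10.32 with NRG1 and 10.30, 10.44 and 10.41 without (-0.078; limma, adjusted p = 0.449). The groups were wholly apart for Pygl and overlapped for Pygb, and the difference between the 2 genes within each array is given below. Gys1, glycogen synthase, rose by 0.23 ± 0.061 (8.80, 8.75 and 8.79 against 8.48, 8.60 and 8.56; limma, adjusted p = 0.02), and Gbe1, the branching enzyme, by 0.33 ± 0.087 (7.18, 7.33 and 7.41 against 6.97, 7.13 and 6.84; adjusted p = 0.0236). Pgm1, which links glucose 1-phosphate to glucose 6-phosphate, rose by 0.25 ± 0.072 (10.14, 10.01 and 10.14 against 9.77, 9.96 and 9.80; limma, adjusted p = 0.0305), and its relative Pgm2 differed by 0.18 (adjusted p = 0.0878). The 3 small rises were not stable to single arrays. The call of Gys1 ended without NRG1 replicate 1 (adjusted p = 0.0705) or 3 (0.0687) and without untreated replicate 1 (0.0967). That of Gbe1 ended without NRG1 replicate 2 (adjusted p = 0.0667) or 3 (0.0905) and without untreated replicate 1 (0.0698) or 3 (0.0834). For Pgm1 it ended without NRG1 replicate 1 (adjusted p = 0.1) or 3 (0.102) and without untreated replicate 1 (0.123) or 3 (0.0928). The Pgm1 call also ended after quantile normalization (0.0738) and with each array centred on its median (0.0539). With the replicate number as a block the calls of Pgm1 (0.0708) and Gys1 (0.0518) ended, and all 3 ended against a minimum change of 1.2-fold. Of 19 further glycogen genes 2 rose and 1 fell, or 10.5% and 5.26%, against 12.3% and 8.56% of all genes. Ugp2, which makes UDP-glucose, rose by 0.44 and the phosphorylase kinase subunit gene Phka2 by 0.42, and Gyg, which primes the glycogen chain, fell by 0.56.

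Whether related genes moved apart was tested on their difference within each array, which removes any shift common to the array. The pairs were a chosen list, of which 11 had both genes measured. Other related genes, such as Pdk1 and Pdk4 or Eno3 and Eno2, were not paired. With 3 arrays against 3 an exact permutation test cannot go below p = 0.1, so that no pair could pass 0.05. The widest move among these 11 was that of Pfkm against Pfkl. Their log2 difference went from -0.54 ± 0.020 untreated to -1.53 ± 0.074 with NRG1 (SD, n = 3 each). The 2-sided exact permutation p was 0.1 (adjusted p = 0.138 over 11 pairs). Pdk1 against Pdk3 moved by 0.92, Ldha against Ldhb by 0.70, Pygl against Pygb by -0.66, Aldoc against Aldoa by -0.52 and Pfkp against Pfkl by -0.31, each with groups that did not overlap and the same exact p. Slc2a1 against Slc2a3 moved by 0.26. Hk2 against Hk1 moved by 0.24 with the brightest Hk1 probe set and by -0.80 with the one paired with RefSeq transcripts, so that its direction depends on the probe set. In Slc16a3 against Slc16a1 (-0.41), Pfkfb3 against Pfkfb4 (0.032) and Pgm2 against Pgm1 (-0.077) the groups overlapped.

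**Figure D3:**
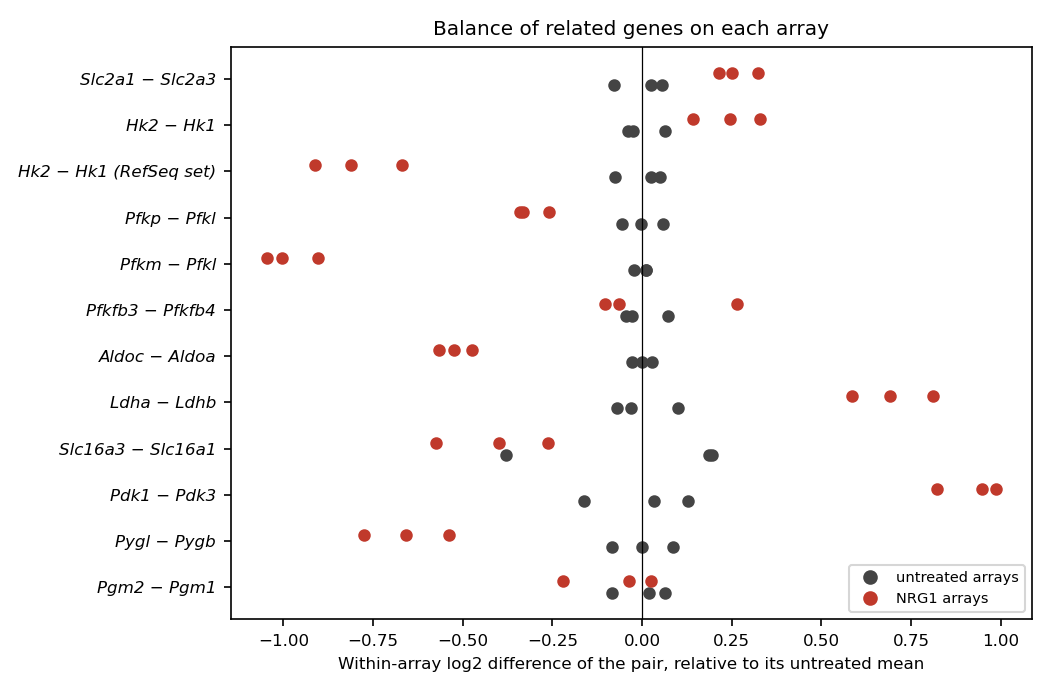
Within-array log2 difference of 11 pairs of related genes on each array, relative to the mean of the 3 untreated arrays of that pair; grey points are untreated arrays and red points NRG1 arrays. Pfkm relative to Pfkl lies lowest and Pdk1 relative to Pdk3 highest, and Hk2 relative to Hk1 is drawn for both Hk1 probe sets, which lie on opposite sides of 0.

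Outside the list, the tricarboxylic acid cycle, which oxidises the product of pyruvate dehydrogenase, was called in both directions. Of 18 measured genes, 4 rose and 4 fell, or 22.2% each way against 12.3% and 8.56% of all genes, with a median change of 0.11. Their median level was 9.86, against 7.17 over all genes, and these shares are not matched for level. Idh3a rose by 0.42, Idh1, the cytosolic NADP-linked form, by 0.42 and Mdh2 by 0.26. Idh2, the mitochondrial NADP-linked form, fell by 0.60, Suclg2 by 0.56 and Sdha by 0.21. Among 24 further genes of lactate and pyruvate metabolism, 6 rose and 1 fell, or 25% and 4.17% against the same shares of all genes. The steepest rises there were those of the mitochondrial malic enzyme genes Me3, from 6.70, 6.84 and 6.96 to 8.04, 7.91 and 7.98 (1.14; limma, adjusted p = 2.74e-06), and Me2 (0.79), followed by the alanine transaminase gene Gpt2 (0.56). Both malic enzymes yield pyruvate from malate.

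Of 27 measured factors known to control glycolytic genes, 2 rose and 5 fell, or 7.41% and 18.5%, against 12.3% and 8.56% of all genes. Hif1a, the oxygen-sensitive subunit of HIF-1, rose from 9.68, 9.77 and 9.64 to 10.24, 10.24 and 10.25, by 0.54 (limma, adjusted p = 0.000102). Srebf1, a regulator of lipid synthesis that also bears on glucose use, rose by 0.38. Epas1, the HIF-2 subunit, fell by 0.34, Txnip, which restrains glucose uptake, by 0.34 and the coactivator gene Ppargc1b by 0.30. Myc fell as well, from 9.36, 9.50 and 9.33 to 9.15, 9.14 and 9.06, by 0.28 (limma, adjusted p = 0.0141). Hif1a and Epas1 thus moved in opposite directions. Among 22 measured hypoxia-inducible genes outside the pathway, 13 rose and 3 fell, or 59.1% and 13.6% against 12.3% and 8.56% of all genes, with a median change of 0.41. The largest were the rises of Bnip3 (1.69), Adm (1.11) and P4ha1 (0.92) and the falls of Ndrg1 (-1.40), Rora (-0.54) and Ak4 (-0.37). Protein, oxygen, glucose and lactate were not measured in these data.

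**Figure D4:**
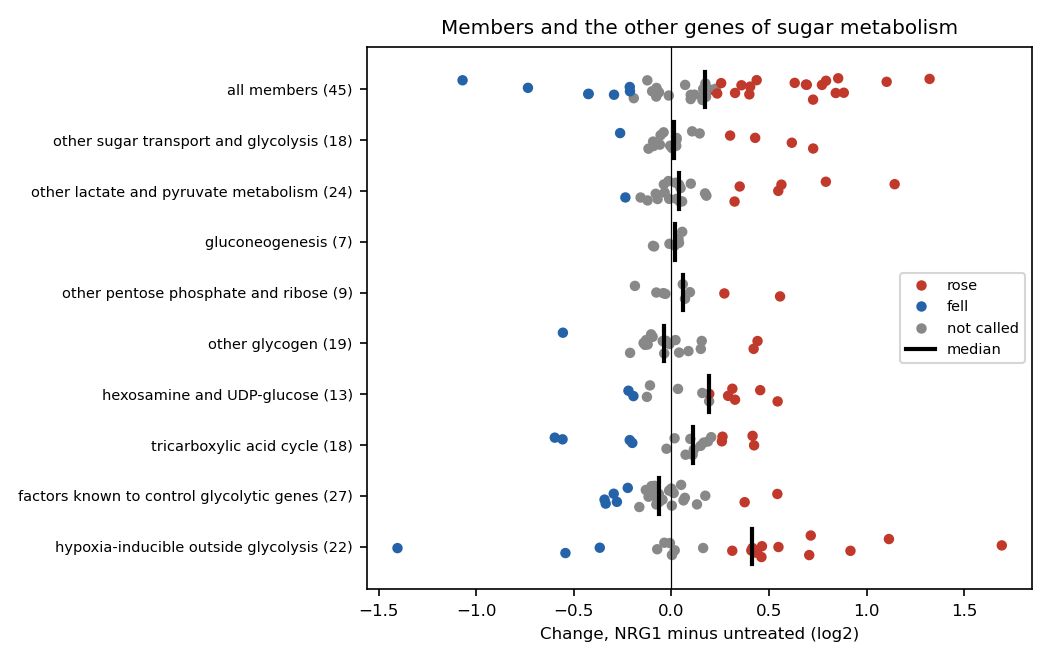
Change of the 45 genes and of the genes of 9 neighbouring lists, NRG1 minus untreated on the log2 scale (horizontal axis), with 1 point per gene, red for rises, blue for falls and grey for genes not called, and the median of each list as a black bar. The median is 0.17 for the 45 genes, 0.41 for hypoxia-inducible genes and 0.016 for gluconeogenesis; the vertical scatter within a list only separates the points.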

How the data were processed

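The authors deposited log2 values per probe set, for which RMA and GCOS are named, per the submitters' processing notes; their versions and settings were not given in the sources used. RMA in its usual form corrects background, normalizes across arrays and summarises probes. From 35557 probe sets, the 21789 that name 1 gene were kept, 1621 named several and 12147 were unnamed here. Symbols were updated through Entrez numbers to RefSeq (GRCm38.p6; 21698 matched), and the brightest probe set per gene gave 19938 genes, with no filter on level. Labels gave the groups, and 200 ng of RNA went onto each array. An array has no read depth, and 3 arrays per group limit the precision (median standard error 0.071).

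The test was limma's moderated fit (version 3.58.1, run under R 4.3.3). It was 2-sided, p-values were adjusted across the 19938 genes by Benjamini-Hochberg, and calls needed an adjusted p under 0.05. On simulated data over 19938 genes, 96.9% of changes of 0.5 and 20.3% of changes of 0.25 on the log2 scale were recovered, and 5.99% of calls were false. Each simulation changed only 200 genes and drew independent noise, whereas 20.9% of all genes were called in the real data. The simulated shares therefore need not hold for these data. Members, lists and pairs were chosen with earlier results of these data known. By rule, values on each array were given for called members, up to 4 per role and direction, and for pairs of related genes, and up to 3 called genes per direction were named from each neighbouring list. Adpgk, Bsg, Myc, Pdhx and Slc16a7 fall outside that rule and were chosen after their values were seen.

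Alternatives covered normalization, level filters, probe sets, the variance model, the replicate number as a block, single arrays left out and a minimum change of 1.2-fold. Another background correction was not run, since it needs probe-level signals.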

Additional observations from a re-analysis of the deposited data

How the results depend on the processing

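Under 17 alternatives, 13 of the 26 calls among the 45 genes were made in every setting in which the gene was tested, and these were 11 rises and 2 falls, also the numbers called against a minimum change of 1.2-fold. The other 13 calls were lost in at least 1 setting, 5 of them only against that minimum. Of 757 gene and setting combinations, 685 kept direction and side of the threshold, 50 lost a call, 20 gained one and 2 reversed. The settings are not independent. Those that average or swap probe sets, or adjust over all of them, left the change of a gene with 1 probe set as it was. Both reversals were those of Hk1, at 0.44 with the mean of its probe sets and 0.96 with the probe set that lists RefSeq transcripts, and Hk2 against Hk1 reversed with them to -0.28 and -0.80. Leaving out 1 array gave 15 to 20 rises and 4 to 7 falls, with 4 falls without NRG1 replicate 2, and such fits rest on fewer samples. The list's median ran from 0.15 to 0.19 over all settings. After quantile normalization Aldoc against Aldoa was at -0.60, Hk2 against Hk1 at 0.16 and Slc2a1 against Slc2a3 at 0.17, and the cause was not tested. Array weights gave 3207 rises and 2881 falls over all genes, against 2461 and 1707, and the 1.2-fold minimum 883 and 342. Same-numbered arrays did not deviate together (correlations -0.095, -0.16 and 0.074), so the numbers were not taken as pairs, and with the replicate number as a block 16 of the 45 rose and 5 fell. Signals near background or saturation limit the size of changes that can be seen.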

Other observations

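The hexosamine and nucleotide sugar genes, which use fructose 6-phosphate and UDP-glucose for glycoproteins and matrix polymers, were called in both directions. Of 13 measured, 6 rose, 2 fell and 5 were not called, or 46.2% and 15.4% called against 12.3% and 8.56% of all genes, with a median change of 0.19 on the log2 scale. Gnpnat1, an acetyltransferase of the pathway, rose from 7.78, 7.90 and 7.66 to 8.51, 8.17 and 8.29, by 0.54 (limma, adjusted p = 0.00209). Gfpt1, which encodes the rate-limiting enzyme of hexosamine synthesis, rose by 0.33, from 10.01, 10.04 and 9.99 to 10.35, 10.35 and 10.32 (adjusted p = 0.00207), and Uxs1, which makes UDP-xylose for proteoglycans, by 0.45. The 2 falls were those of Ogt, which places the sugar on proteins, by 0.22 (limma, adjusted p = 0.0185), and of Pmm1, a phosphomannomutase gene, by 0.19 (adjusted p = 0.0403).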
